A study of Ovis aries with 12 samples.

Results

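The mitochondrial ribosomal proteins are the nuclear-encoded proteins of the ribosome inside mitochondria. They were taken here as every gene whose only symbol in the array's annotation starts with MRPL or MRPS and a digit. The rule found 84 probe sets for 67 genes, out of 9155 genes with a symbol of their own on the array: 43 genes named MRPL and 24 named MRPS. Where a gene had several probe sets, the brightest over all arrays stood for it. By their place in the particle, 45 of the proteins belong to the large subunit and 21 to the small one. MRPS30 and MRPS18A were counted with the large subunit despite their names. MRPS36 was counted with neither, because the protein of that name is now known as KGD4, a component of the 2-oxoglutarate dehydrogenase complex.

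Mitochondria keep a small genome that encodes core subunits of the respiratory chain and ATP synthase, and a dedicated ribosome makes them. Its RNAs come from the mitochondrial genome, whereas its proteins are made in the cytosol and imported. The large subunit joins amino acids and sends the new chain out through a tunnel towards the inner membrane, and the small subunit binds and reads the messenger RNA. Some of the proteins have bacterial counterparts, and others are found only in mitochondria. Skeletal muscle is rich in mitochondria, and its oxidative fibres more so than its fast glycolytic ones.

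The samples were total RNA of longissimus dorsi, a large fast-twitch muscle that runs along the spine, hybridised to bovine expression arrays, with 12 lambs and 1 array for each. Callipyge is an inherited overgrowth of muscle in sheep that appears in the weeks after birth. The 6 callipyge lambs were labelled +/CLPG, that is, with 1 copy of the callipyge allele, and the 6 normal lambs +/+. Each genotype had 2 lambs at 10, 2 at 20 and 2 at 30 days of age, labelled as biological replicates. The lambs nursed until shortly before they were killed. The labels used here do not give sex, sire or litter. The design asks how gene expression differs between the genotypes while the hypertrophy begins. The whole muscle was sampled, so fewer cells of a type and less RNA per cell cannot be told apart. Sheep RNA was read by probes designed for cattle.

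Values are log2 of each array's scaled signal plus 16, and a difference of 1 on this scale is close to 2-fold for a bright probe set and understates the change of a dim one. Each probe set has a brightness of its own, so levels are compared between lambs and not between genes. A call means an adjusted p under 0.05 in a fit over the 12008 probe sets of at least median brightness. Of the 67 genes, 63 were among these, 42 of the large subunit and 20 of the small. The 4 dim ones were MRPL15, MRPL36, MRPL46 and MRPS2. For these the differences between 30 and 10 days were -0.09, 0.36, 0.35 and 0.60, and those between callipyge and normal -0.09, 0.04, -0.13 and 0.03, with no test.

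Before scaling, the trimmed mean signal ran from 55.7 to 105.7 over the arrays. The first component of the log2 values ordered the lambs by age without overlap, and replicate 2 of each genotype at 30 days scored highest. The scores were 15.9 (callipyge) and 27.5 (normal), against 6.43 and 8.77 for replicate 1. At the other end lay the normal 10 day lambs at -22.0 and -17.0, then the callipyge 10 day lambs at -12.4 and -13.1. The lambs at 20 days lay between, from -1.33 to 4.81. A check that leaves out replicate 2 of both 30 day groups therefore removes the lambs at the older end of this order. All 11 measured skeletal muscle markers, of 15 listed, were bright enough to be tested, and none of them was called with genotype or with age. Of all probe sets, 0.883% were called with genotype averaged over ages and 1.26% were called lower from 10 to 30 days. In a list of 11 genes, 0 calls is near these shares.

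Most mitochondrial ribosomal proteins had lower values at 30 than at 10 days. Averaged over the genotypes, 57 of the 63 tested genes had a difference below 0, or 90.5%, against 54.3% of the 6346 genes tested. Their median difference was -0.30, against -0.03 for all genes. Of the 63, 5 fell and 0 rose: MRPL3, MRPL12, MRPL22 and MRPL43 of the large subunit and MRPS34 of the small. That was 7.94% of the tested members, where 1.26% of all tested probe sets and 1.99% of the 6346 genes were called lower. A further measure, an unadjusted p under 0.05, was met downwards by 24 members, or 38.1%, against 8.74% of probe sets and 11.6% of genes.

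The single lambs were also compared. In 10 members all 4 lambs at 30 days lay below all 4 at 10 days, or 15.9%, against 4.31% of probe sets and 5.92% of genes. They were the 5 called genes with MRPL4, MRPL13, MRPS7, MRPS27 and MRPS36. In 0 members did all 4 older lambs lie above the younger, against 3.53% of probe sets and 2.96% of genes.

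**Figure D1:**
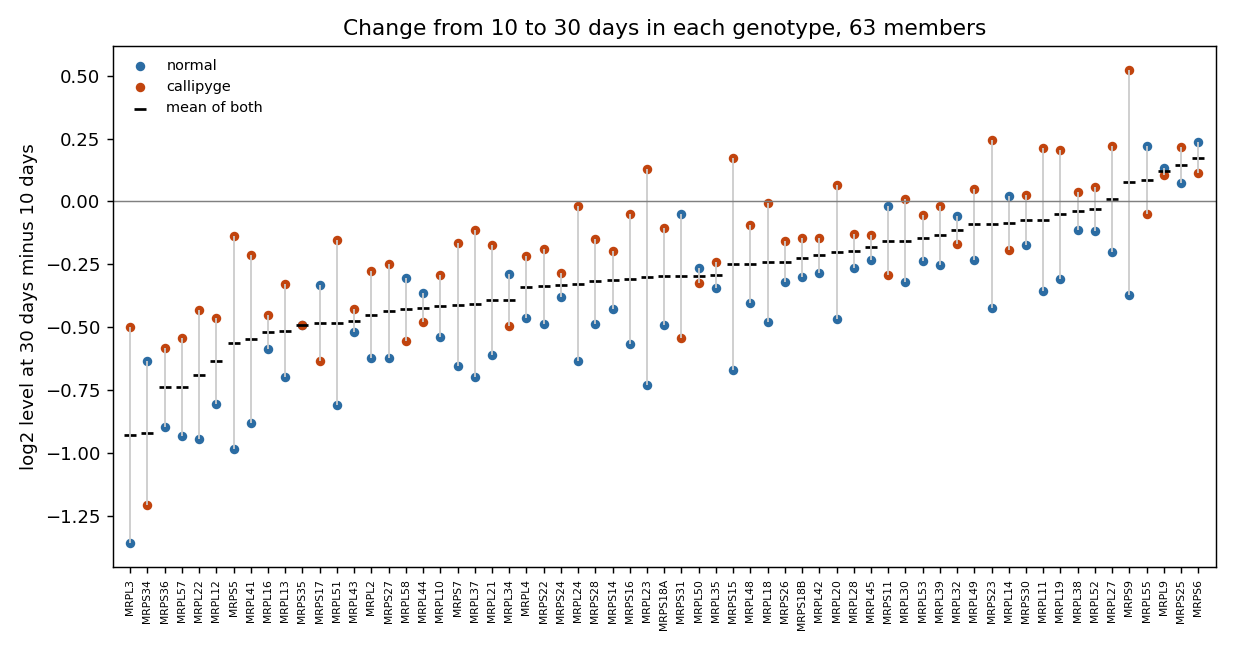
Each column is 1 of the 63 tested members, ordered by the mean of both genotypes (black bar); the vertical axis is the log2 level at 30 days minus that at 10 days in normal (blue) and callipyge (orange) lambs, each from the mean of 2 lambs per age. For 57 members the mean lies below 0, and for 49 the callipyge point lies above the normal point.

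MRPL3 sits close to the site where peptide bonds form. At 10 days its values were 7.27 and 7.83 in the callipyge lambs and 7.93 and 8.27 in the normal lambs, and at 30 days 7.06 and 7.04 against 6.83 and 6.65. All the older lambs lay below all the younger ones, and the normal lambs were the highest group at 10 days and the lowest at 30. The difference was -0.93 ± 0.16 (SE), or 1.90-fold lower (adjusted p = 0.0174, limma, n = 4 lambs per age).

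MRPS34 is a small-subunit protein with no bacterial counterpart, and inherited loss of it causes Leigh syndrome in people. At 10 days it stood at 6.72 and 6.99 in callipyge and 6.79 and 7.16 in normal lambs. At 20 days the values were 5.82, 6.31, 6.52 and 6.64, and at 30 days 5.57, 5.73, 6.23 and 6.45, callipyge first in both. The lambs at 30 days were all below those at 10 days, and at 20 and 30 days both callipyge lambs lay below both normal lambs. The change from 10 to 30 days was -0.92 ± 0.16 (adjusted p = 0.0174, limma). A dimmer probe set of MRPS34 gave -0.24.

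MRPL22 lines the tunnel through which the new chain leaves. Its 10 day values were 8.60 and 8.49 in callipyge and 8.58 and 8.86 in normal lambs, and its 30 day values 8.26 and 7.98 against 7.65 and 7.90. The normal lambs were the lower ones at 30 days. The change was -0.69 ± 0.14 (adjusted p = 0.0272, limma).

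MRPL12 forms the flexible stalk that recruits translation factors, and it also binds the mitochondrial RNA polymerase. At 10 days it stood at 7.42, 7.69, 7.96 and 8.07, and at 30 days at 6.93, 7.25, 7.29 and 7.13, callipyge first. The gap between the ages was narrow, since the lowest younger lamb exceeded the highest older one only slightly. The change was -0.63 ± 0.15 (adjusted p = 0.0467, limma).

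MRPL43 is a large-subunit protein with no bacterial counterpart. At 10 days it stood at 10.13, 10.32, 10.24 and 10.35, and at 30 days at 9.75, 9.85, 9.81 and 9.74, callipyge first. The 4 lambs of each age lay close together and the ages were well separated. The change was -0.47 ± 0.11 (adjusted p = 0.0465, limma), and a second probe set gave -0.37.

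**Figure D2:**
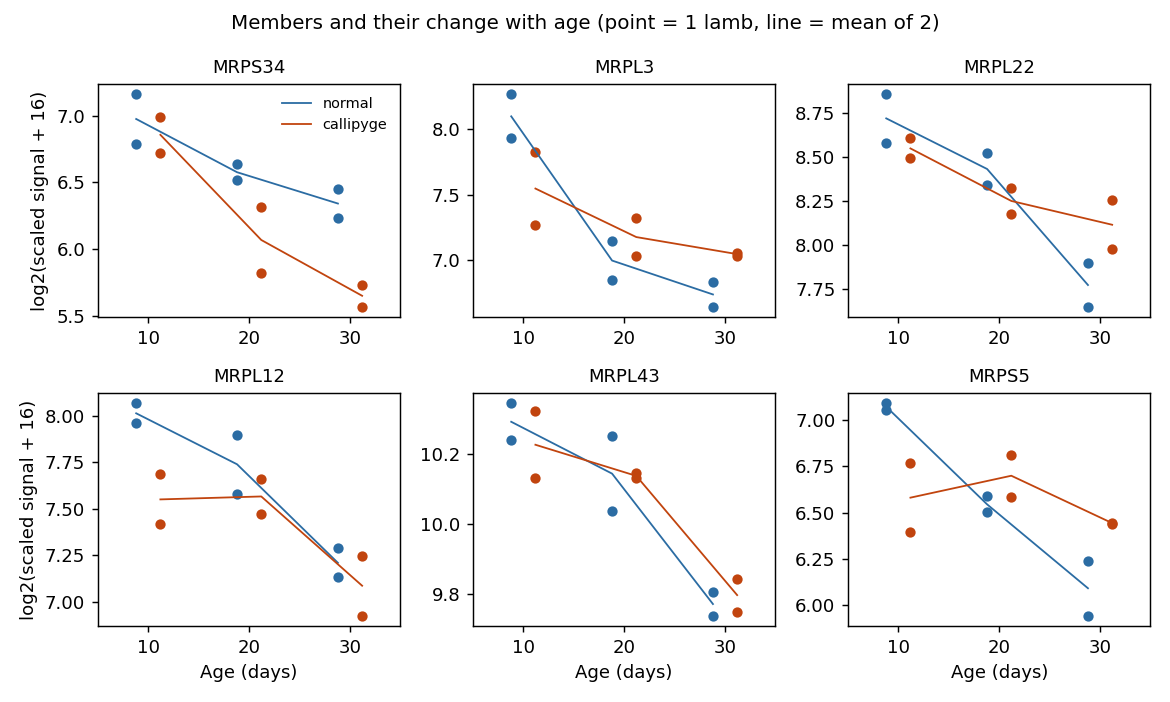
Log2(scaled signal + 16) against age in days for the 5 members called between 10 and 30 days and MRPS5, with axes that differ between panels; points are lambs and lines join the means of 2 lambs. In the first 5 panels all lambs at 30 days lie below all at 10 days. MRPS5 runs down in the normal lambs (blue), with a difference of -0.98 between the means at 30 and 10 days.

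Just outside the threshold lay MRPS36 (-0.74, adjusted p = 0.0521), MRPS5 (-0.56, 0.0766) and MRPL13 (-0.51, 0.0815). MRPL57 had a difference of -0.74 with a wider error of 0.22 (adjusted p = 0.121), and its second probe set gave 0.12. The 6 members above 0 were MRPS6 at 0.17, MRPS25 at 0.15, MRPL9 at 0.12, MRPL55 at 0.09, MRPS9 at 0.08 and MRPL27 at 0.01. None of the 6 was called, and the adjusted p of the highest, MRPS6, was 0.653. In 11 of the 14 members with several probe sets, every probe set had the same sign for this change. That sign was above 0 in the dim genes MRPL46 and MRPS2 and below 0 in the others. The second probe sets of MRPL14 and MRPL30 were too dim to be tested. The signs differed in MRPL39, MRPL57 and MRPS9.

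The medians of the subunits were alike, and their difference was not tested. The median was -0.29 in the large subunit, with 39 of 42 below 0, and -0.31 in the small subunit, with 17 of 20 below 0. Among the large-subunit proteins found only in mitochondria, all 18 tested lay below 0, from -0.74 to -0.03, and 1 of them fell. The 24 with bacterial counterparts had 21 below 0, of which 3 fell.

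Not all of the 5 calls held when lambs were left out, which also leaves fewer arrays, while the common direction stayed. Without single lambs the differences of the 5 called members kept their sign. MRPL3 ran from -1.07 to -0.79, MRPS34 from -1.01 to -0.83 and MRPL22 from -0.76 to -0.62. MRPL12 ran from -0.72 to -0.55 and MRPL43 from -0.52 to -0.43. The share of all probe sets called is not given for the settings that follow. Without replicate 2 of both 30 day groups 0 members were called, but 57 of 63 still lay below 0, with a median 0.27 below that of all genes. Leaving out single lambs gave 0 to 3 calls, with 0 calls when callipyge 10 day replicate 2 or either normal 10 day lamb was left out. Without scaling of the arrays, the median of all genes moved to 0.22 and 34 of 63 members lay below 0. The members' median then lay 0.23 below that of all genes, so the direction is one relative to the other genes on the array. With median centring 50 of 63 lay below 0 and the median was -0.17, against 0.06 for all genes.

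By the members' median, most of the difference lay between 20 and 30 days. In some members the earlier step was the larger, such as MRPL3 (-0.73, then -0.19) and MRPS34 (-0.59, then -0.33). The other tested probe set of MRPS34 gave -0.09, then -0.15. From 10 to 20 days the members' median was -0.04, against -0.02 for all genes, and 39 of 63 lay below 0. From 20 to 30 days it was -0.22, against -0.01, and 57 of 63 lay below 0. Neither step held a called member, where 0% and 0.00833% of probe sets were called in either direction. An unadjusted p under 0.05 was met downwards by 3 members in the first step and 13 in the second, against 4.61% and 4.87% of probe sets, and upwards by 0 in both, against 3.81% and 4.12%. Over genes the downward shares were 4.71% and 7.22%. In the first step the direction turned with the scaling: the median was 0.05 with median centring and 0.10 with no scaling, where all genes stood at 0.06 and 0.11. The steps share the 20 day lambs, and the difference between them was not tested.

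The members at the ends of each step were as follows. In the first step MRPL3 (-0.73 ± 0.16), MRPS36 (-0.67 ± 0.18), MRPS34 (-0.59 ± 0.16) and MRPL22 (-0.29 ± 0.14) had the lowest values of the test statistic, with adjusted p from 0.190 to 0.597. MRPL48 stood highest at 0.24 (adjusted p = 0.677), followed by MRPS14, MRPL39 and MRPS18B. In the second step the lowest were MRPL13 (-0.56 ± 0.14), MRPL48 (-0.49 ± 0.14), MRPL12 (-0.51 ± 0.15) and MRPS14 (-0.51 ± 0.15), with adjusted p from 0.174 to 0.279. MRPL48 and, by its brightest probe set, MRPS14 were thus above 0 up to 20 days and below 0 after it. The other tested probe set of MRPS14 was below 0 in both steps, at -0.12 and -0.24. MRPS25 (0.26), MRPS30 (0.14), MRPS6 (0.12) and MRPL9 (0.10) stood highest in the second step, and their smallest adjusted p was 0.647.

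The differences with age were larger in the normal lambs for most members, although the difference between the genotypes passed the test for none. Within the normal lambs 58 of 63 members had a difference below 0 between 30 and 10 days, with a median of -0.40, and 3 fell, where 0.6% of probe sets and 0.993% of genes were called lower. MRPL3 fell by 1.36 on the log2 scale (SE 0.23, adjusted p = 0.0279), MRPL22 by 0.94 (SE 0.19, adjusted p = 0.0443) and MRPS5 by 0.98 (SE 0.21, adjusted p = 0.0471), all by limma with 2 lambs per age. There were 0 calls when either normal 10 day lamb or normal 30 day replicate 2 was left out, and 0 without replicate 2 of both 30 day groups. Within the callipyge lambs 47 of 63 lay below 0, with a median of -0.15, and 0 members and 0% of probe sets were called. In them 6 members met an unadjusted p under 0.05 downwards, against 25 in the normal lambs. The corresponding shares were 3.84% and 7.62% of probe sets and 4.92% and 10.3% of genes. With no scaling the callipyge median turned to 0.17, with 14 of 63 below 0, against 0.29 for all genes, and the normal median was -0.19, with 51 below 0, against 0.15.

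MRPS5, a small-subunit protein near the channel by which the messenger enters, was one of the 3. In normal lambs it stood at 7.06 and 7.09 at 10 days, 6.59 and 6.50 at 20 days and 5.94 and 6.24 at 30 days. In callipyge lambs the values were 6.39 and 6.77, then 6.81 and 6.59, then 6.44 and 6.45. The normal lambs went from the highest to the lowest level, and the callipyge lambs stayed within a narrow band.

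The difference between these changes, tested as an interaction, passed for 0 members and 0% of all probe sets. The interaction was above 0, meaning a smaller fall in callipyge lambs, in 49 of 63 members, with a median of 0.25 against 0.03 for all genes. An unadjusted p under 0.05 was met by 8 members upwards, or 12.7%, against 2.62% of probe sets and 3.17% of genes, and by 0 downwards, against 2.49% and 2.35%. The highest were MRPS5 (0.85 ± 0.29), MRPS15 (0.84 ± 0.29), MRPL23 (0.86 ± 0.31) and MRPS23 (0.67 ± 0.26), each with an adjusted p of 0.928. MRPS34 stood lowest at -0.57 ± 0.33 (adjusted p = 0.959), but its other tested probe set had the opposite sign at 0.26. MRPS31, MRPS11 and MRPL55 followed. By sign alone, 45 members lay below 0 in both genotypes, 13 in normal lambs only, 2 in callipyge lambs only and 3 in neither.

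**Figure D3:**
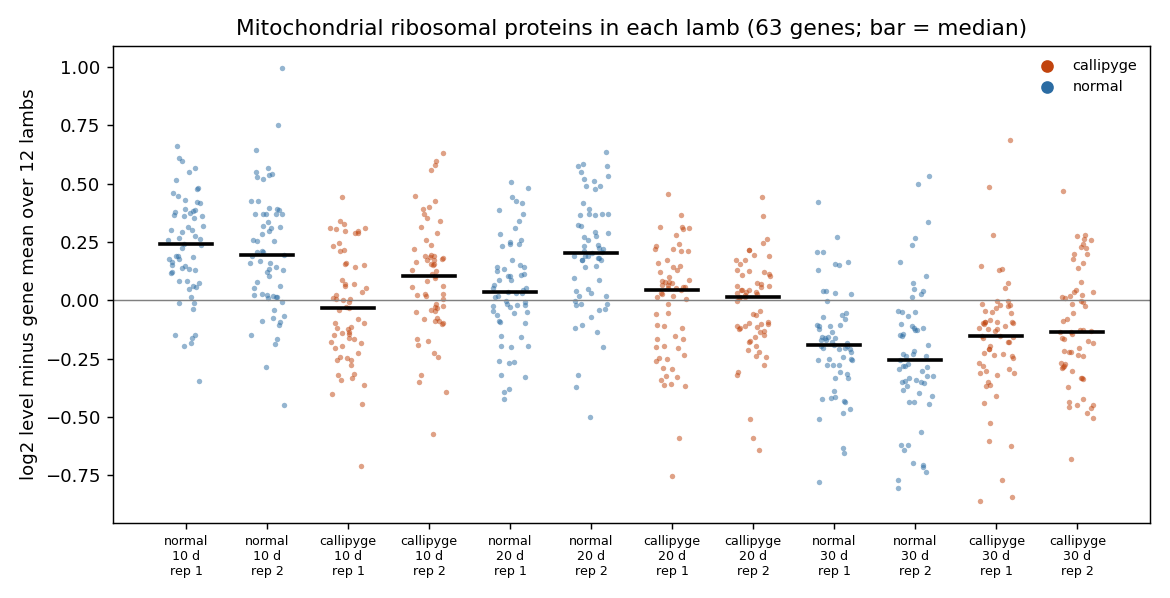
Each point is 1 of 63 members in 1 lamb, as its log2 level minus that member's mean over the 12 lambs, with a bar at the median; blue is normal and orange callipyge. The medians are highest in the normal lambs at 10 days (0.24 and 0.20) and lowest in the normal lambs at 30 days (-0.19 and -0.26).

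The lambs were then compared over the whole set. Each member was set against its own mean over the 12 lambs, and the median of these deviations was taken per lamb. It was highest in the normal lambs at 10 days, at 0.24 and 0.20, and lowest in the normal lambs at 30 days, at -0.19 and -0.26. The callipyge lambs stood at -0.03 and 0.11 at 10 days, 0.05 and 0.01 at 20 days and -0.15 and -0.13 at 30 days. The normal lambs at 20 days differed from each other, at 0.04 and 0.20. Over all tested genes the same medians ran from -0.02 to 0.04. In the normal 10 day lambs 54 and 51 of the 63 members lay above their own mean, and in the normal 30 day lambs 12 and 12.

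Between the genotypes, averaged over the ages, 0 members were called, where 0.883% of probe sets were called in either direction. The members' median was -0.06, against -0.01 for all genes, and 45 of 63 lay below 0, that is, lower in callipyge lambs. The count was 53 with median centring and 59 with no scaling, where the median of all genes moved to -0.06 and -0.19. An unadjusted p under 0.05 was met by 10 members downwards, or 15.9%, against 5.95% of probe sets and 6.71% of genes, and by MRPL16 alone upwards, against 5.81% and 5.97%. In MRPL37 and MRPL58 each of the 6 callipyge lambs was lower than both normal lambs of the same age, 3.17% of members against 1.47% of probe sets and 1.7% of genes. In 0 members did all 6 lie above, against 1.84% and 1.83%.

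MRPL37, a large-subunit protein with no bacterial counterpart and a relative of MRPS30, was the nearest to a call. Its callipyge values were 8.80 and 9.14 at 10 days, 8.75 and 9.06 at 20 days and 8.96 and 8.75 at 30 days. The normal values were 9.73 and 9.64, then 9.29 and 9.30, then 9.01 and 8.97. The gap between the genotypes was widest at 10 days, when the normal lambs were highest. The average difference was -0.41 ± 0.11 (adjusted p = 0.106, limma), with 6 of 6 callipyge lambs lower.

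MRPL58, also known as ICT1, is a peptidyl-tRNA hydrolase built into the large subunit that frees stalled ribosomes. It stood at 7.81 and 8.12, 8.23 and 7.30, and 7.32 and 7.50 in callipyge lambs at the 3 ages. In normal lambs it stood at 8.13 and 8.34, 8.29 and 8.43, and 8.11 and 7.75. The genotypes were separated at each age, by little at 10 and 20 days. The difference was -0.46 ± 0.16 (adjusted p = 0.244, limma).

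MRPS34 differed by -0.44 ± 0.13 (adjusted p = 0.190, limma), MRPL51 by -0.38 ± 0.12 (0.192) and MRPL39, which resembles part of a threonyl-tRNA synthetase, by -0.39 ± 0.12 (0.212). The other tested probe set of MRPS34 gave only -0.09. The other tested probe set of MRPL39 gave -0.25 and a dim one 0.15. On the other side stood MRPL16, a protein at the tRNA-binding face of the large subunit, at 0.35 ± 0.13 (adjusted p = 0.313, limma). It stood at 7.96 and 8.06 in callipyge and 7.75 and 7.47 in normal lambs at 10 days, and at 7.40 and 7.71 against 6.85 and 7.20 at 30 days. The genotypes overlapped at 20 days and were separated at the other ages. MRPS17 (0.33), MRPS31 (0.25) and MRPL42 (0.21) followed, with adjusted p from 0.491 to 0.534. A two-sided exact permutation of genotype within age, unadjusted, gave p = 0.0278 for MRPS34 and MRPL39, 0.0556 for MRPL51 and 0.0463 for MRPL16, all chosen here by their test statistic. The probe sets of the dim gene MRPS2 gave 0.03 and -0.50.

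**Figure D4:**
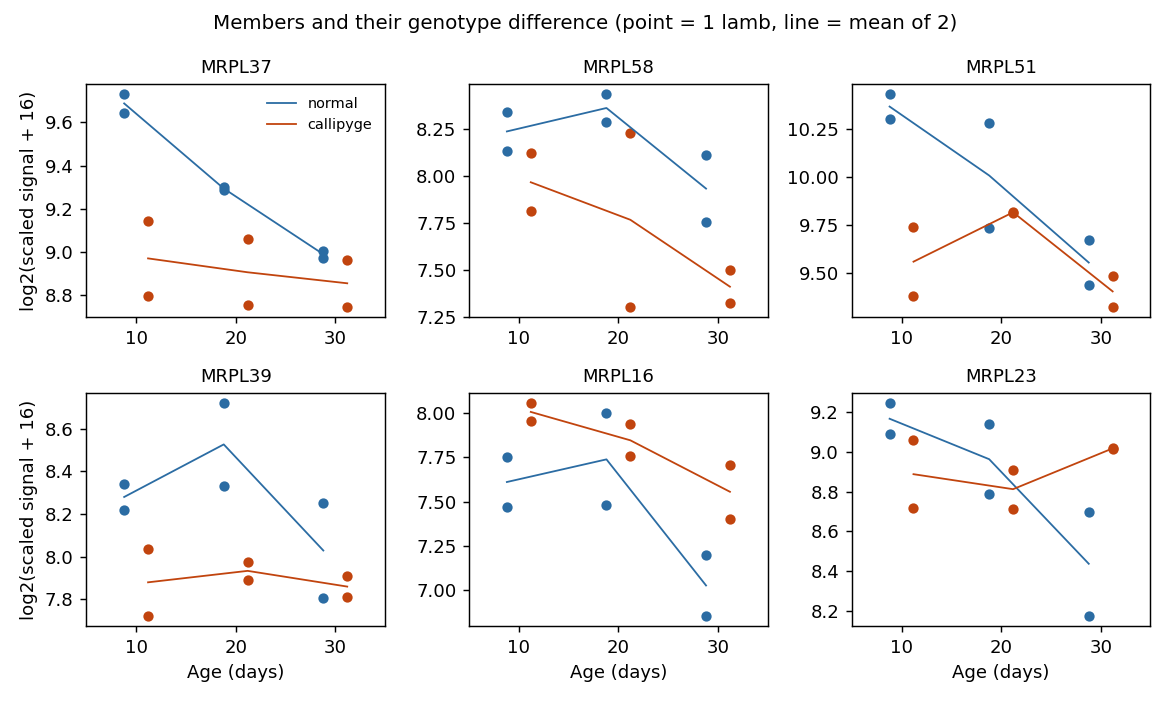
Log2(scaled signal + 16) against age in days for MRPL37, MRPL58, MRPL51, MRPL39, MRPL16 and MRPL23, with axes that differ between panels; points are lambs and lines join the means of 2 lambs. In MRPL37 and MRPL58 both callipyge lambs (orange) lie below both normal lambs (blue) at each age, while MRPL23 is higher in callipyge lambs at 30 days. None of the 6 was called with genotype.

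The median genotype difference was below 0 at 10 and 20 days and above 0 at 30 days. At 10 days the median was -0.20, against -0.02 for all genes, and 47 of 63 members lay below 0. At 20 days it was -0.15, against 0.00, with 45 below 0. At 30 days it was 0.08, against 0.00, with 23 below 0 and 40 above. No age had a called member, where 0.0666%, 0.0333% and 0.05% of probe sets were called. Downwards, 10, 5 and 1 members met an unadjusted p under 0.05 at 10, 20 and 30 days, or 15.9%, 7.94% and 1.59%, against 4.48%, 3.11% and 3.97% of probe sets and 5.20%, 3.37% and 3.70% of genes. Upwards, 0, 0 and 4 members met it, the last being 6.35%, against 4.34%, 3.04% and 3.63% of probe sets and 4.27%, 3.03% and 4.07% of genes. In 21 members the difference was below 0 at 10 and 20 days and above 0 at 30 days, in 16 it was below 0 at all 3 ages and in 7 above 0 at all 3. Without replicate 2 of both 30 day groups the members' median at 30 days lay 0.01 above that of all genes, so the higher level at that age rests on these lambs. With no scaling the median at 30 days was -0.01, with 33 members below 0, against -0.09 for all genes.

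At 10 days both callipyge lambs lay below both normal lambs in 31 members, or 49.2%, against 20.8% of probe sets and 22.8% of genes, and above them in 6, or 9.52%, against 18.4% and 18.1%. MRPL51 stood at 9.38 and 9.74 in callipyge and 10.30 and 10.43 in normal lambs, a difference of -0.80 ± 0.20 (adjusted p = 0.199, limma). MRPL37 differed by -0.72 ± 0.18 (0.217), MRPS15 by -0.65 ± 0.21 (0.351) and MRPS9 by -0.90 ± 0.32 (0.415). MRPS9 stood at 5.89 and 6.25 in callipyge and 7.08 and 6.86 in normal lambs, but its other tested probe sets gave -0.05 and -0.02 at this age. The highest were MRPL14 (0.50), MRPS17 (0.53), MRPS31 (0.41) and MRPL16 (0.40), with adjusted p from 0.620 to 0.720. Leaving out 1 lamb took MRPS15 to as little as -0.33, MRPL14 to 0.29 and MRPS17 and MRPL16 to 0.25.

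At 20 days both callipyge lambs lay below both normal lambs in 19 members, or 30.2%, against 18.4% of probe sets and 19.4% of genes, and above them in 4, or 6.35%, against 19.3% and 18.6%. MRPS36 stood at 6.97 and 7.22 in callipyge and 7.85 and 8.05 in normal lambs, a difference of -0.85 ± 0.25 (adjusted p = 0.555, limma). MRPS6 (-0.71 ± 0.23), MRPL39 (-0.59 ± 0.21) and MRPS34 (-0.51 ± 0.23) followed. MRPS30 (0.48), MRPS31 (0.44), MRPL42 (0.29) and MRPS26 (0.26) stood highest, with adjusted p of at least 0.843. MRPL42 stood at 0.01 without normal 20 day replicate 1, and MRPS30 at 0.16 without callipyge 20 day replicate 2. MRPS34 came to as little as -0.26 and MRPS31 to 0.25 without 1 lamb. The other tested probe set of MRPS34 gave -0.09 at this age.

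At 30 days the lambs of the genotypes were separated downwards in 8 members, or 12.7%, against 17.9% of probe sets and 16.8% of genes, and upwards in 15, or 23.8%, against 15.6% and 17.1%. MRPL23, a protein at the mouth of the exit tunnel, stood at 9.02 and 9.02 in callipyge and 8.70 and 8.18 in normal lambs, a difference of 0.58 ± 0.22 (adjusted p = 0.569, limma). MRPL19 (0.62 ± 0.26), MRPL16 (0.53 ± 0.23) and MRPL18 (0.50 ± 0.23) were also above 0. For MRPL19 the callipyge lambs stood at 7.24 and 6.42 and for MRPL18 at 7.39 and 6.70. Without callipyge 30 day replicate 1 the differences were 0.21 and 0.15, and without normal 30 day replicate 2 that of MRPL23 was 0.32. MRPL16 came to as little as 0.36 without 1 lamb. MRPS34 (-0.69 ± 0.23, adjusted p = 0.524), MRPL58 (-0.52 ± 0.27), MRPS35 (-0.40 ± 0.25) and MRPS26 (-0.38 ± 0.20) stood lowest. The other tested probe sets of MRPS34 and MRPS35 had the opposite sign at this age, at 0.04 and 0.24. Without 1 lamb MRPS35 came to as little as -0.13, MRPS26 to -0.21 and MRPL58 to -0.34.

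**Figure D5:**
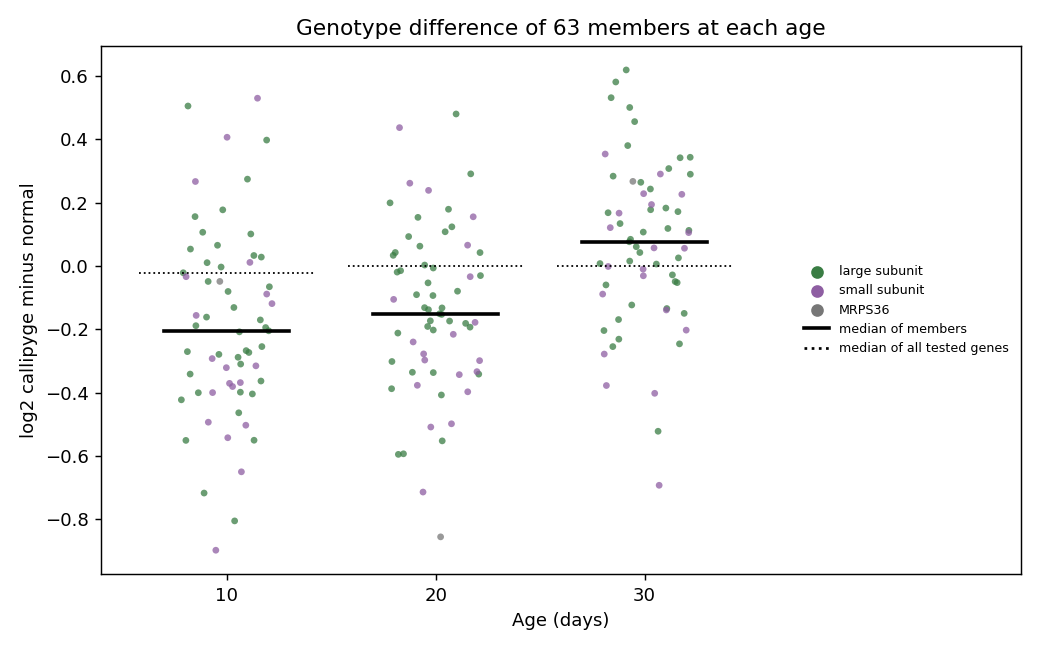
Each point is the log2 difference, callipyge minus normal, of 1 of 63 members at that age (green large subunit, purple small subunit, grey MRPS36); solid bars are the members' medians and dotted lines those of all tested genes. The members' medians are -0.20, -0.15 and 0.08 at 10, 20 and 30 days.

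The order of the ages was the same in both subunits. At 10, 20 and 30 days the large-subunit median was -0.19, -0.11 and 0.10, and the small-subunit median -0.32, -0.26 and 0.03. Averaged over ages the medians were -0.03 and -0.15. The small-subunit proteins found only in mitochondria had 8 of 9 below 0, with a median of -0.19 over the ages.

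Other genes of mitochondrial translation were read from lists of their roles, and 0 of their members rose or fell with genotype or from 10 to 30 days. Of all probe sets, 0.883% were called with genotype averaged over ages and 1.26% were called lower from 10 to 30 days. At such shares, lists of this size would hold few calls. The 5 ribosomal proteins with other names, such as DAP3, had a median of -0.30 from 10 to 30 days, with 4 of 5 below 0. The 13 translation factors had a median of -0.22, with 10 below 0. TUFM, the elongation factor that brings aminoacyl-tRNAs to the ribosome, stood at 8.81, 8.98, 8.86, 9.01, 8.53 and 8.69 in the callipyge lambs in order of age and at 9.48, 9.43, 9.47, 9.18, 8.88 and 8.88 in the normal lambs. It was lower in both callipyge lambs than in both normal lambs at each age. Its genotype difference was -0.40 ± 0.10 (adjusted p = 0.0940, limma) and its change with age -0.43 ± 0.12 (0.101). MTIF2, an initiation factor, differed by -0.60 ± 0.14 with genotype (adjusted p = 0.0747).

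The 22 assembly and rRNA modification genes had a median of -0.09 with age and 18 below 0, led by C1QBP (-0.44, adjusted p = 0.101) and MALSU1 (-0.52, 0.113), which attaches to the large subunit late in its assembly. The 15 aminoacyl-tRNA synthetases had a median of -0.10 and 12 below 0, with NARS2 at -0.47 (adjusted p = 0.111). The 12 genes of mitochondrial transcription and genome upkeep had a median of -0.02 and 6 below 0. Among them HSD17B10, a subunit of the enzyme that trims mitochondrial tRNAs, stood at -0.46 (adjusted p = 0.108). It fell within the normal lambs (-0.92, adjusted p = 0.0443, limma), against a difference of 0.01 in the callipyge lambs, the only call among these lists within a genotype. The 8 regulators had a median of 0.11 and 2 below 0. Of these MYC differed by -0.64 ± 0.15 with genotype (adjusted p = 0.0738, limma).

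A pair of larger groups had calls in the same direction with age. From 10 to 30 days 26 of 79 respiratory chain subunits fell, with a median of -0.41, and 24 of 67 cytosolic ribosomal proteins fell, with a median of -0.39, where 1.26% of probe sets and 1.99% of genes were called lower. For the interaction with genotype the respiratory chain had a median of 0.31, the mitochondrial ribosomal proteins 0.25 and the cytosolic ribosomal proteins 0.04. Between the genotypes, the respiratory chain medians were -0.31, -0.20 and -0.01 at 10, 20 and 30 days. Those of the cytosolic ribosomal proteins were -0.09, -0.05 and -0.04, and those of the mitochondrial ribosomal proteins -0.20, -0.15 and 0.08. At 10 days 72 of 79 respiratory chain subunits lay below 0. These differences between the groups were not tested.

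None of the cell type markers was called over both genotypes from 10 to 30 days, where 1.26% of probe sets and 1.99% of genes were called lower. All 11 measured skeletal muscle markers lay below 0 from 10 to 30 days, with a median of -0.14. Their summed scaled signal was 87454 to 93501 at 10 days and 79799 to 83068 at 30 days in callipyge lambs, which do not overlap, and 86517 to 95947 and 73521 to 90329 in normal lambs, which do. Of 9 tested endothelial and smooth muscle markers, 8 were above 0. Their sum was 5013 to 5667 in normal lambs at 30 days, against 3344 to 4286 in normal lambs at 10 days, 3727 to 4049 in callipyge lambs at 10 days and 3118 to 4419 in callipyge lambs at 30 days. TAGLN, of smooth muscle, was called higher at 30 days in normal lambs (1.07, adjusted p = 0.0395, limma).

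The 4 tested immune markers, of 7 measured, were all above 0 from 10 to 30 days, with a median of 0.33. Of these, 2 met an unadjusted p under 0.05 upwards, against 6.98% of genes. In callipyge lambs the sums of the 4 markers were 110 and 111 at 10 days and 144 and 195 at 30 days. In normal lambs the sums were 85.0 and 142 at 10 days and 162 and 181 at 30 days. Neither genotype had overlap between these ages. The sums are low, and the other measured immune markers were too dim to be tested. Of 10 fibroblast and matrix markers 8 lay below 0, with a median of -0.08, and the 3 nerve and Schwann cell markers all did, with the same median. Of the 3 tested erythroid and the 3 tested adipocyte markers, 2 each were above 0, with medians of 0.15 and 0.20. The part of these markers in the change was not tested. Between the genotypes, averaged over ages, 9 of the 11 skeletal muscle markers were above 0, with a median of 0.09. The other 2 were lower in callipyge lambs at an unadjusted p under 0.05, the lowest at -0.61. All 3 tested erythroid markers were lower in callipyge lambs, with a median of -0.54, 2 of them at that unadjusted p. That p was met downwards by 6.71% of genes. The part of the markers in the genotype differences was not tested. The ratio of 3′ to 5′ GAPDH signal, a measure of RNA integrity, was 0.31 ± 0.04 (SD, log2, n = 4) at 10 days, 0.34 ± 0.13 at 20 days and 0.30 ± 0.04 at 30 days. Normal 20 day replicate 1 stood apart at 0.53, while its ratio for actin was -0.28, inside the range of -0.41 to -0.11 over the lambs. The median member deviation of that lamb was 0.04, against 0.20 in the other normal lamb of its age.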

How the data were processed

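The deposited values were linear intensities, 1 per probe set and array, made by the authors with MAS5 in GCOS, per the submitters' processing notes. No version, scaling target or detection call was used here. The arrays' trimmed means (2% left out at each end) differed 1.90-fold, so each array was scaled to their mean of 79.2 and log2 of the value plus 16 was taken. The 112 control probe sets were left out, then those with a mean below the median of 5.25, which left 12008 of 24016. In the array's annotation 13292 probe sets had 1 gene symbol, 86 several and 10638 none, and 64 of the 67 symbols are in the sheep RefSeq table (ARS-UI_Ramb_v3.0).

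The limma package (3.58.1, under R 4.3.3) fitted 6 group means to every probe set, with variances shared with a trend (6 residual and 6.93 prior degrees of freedom) and Benjamini-Hochberg adjustment over all 12008. The model was tested on simulated data. Genotype was also permuted within age for single members (216 relabelings, two-sided, exact). That p is not given for members named because their genotypes do not overlap, since it is then fixed at the smallest the design allows. Plots used matplotlib 3.10.9 under python 3.11.15. The members, lists and tests were chosen with earlier results of these data known. Named were members called in any comparison, the 4 highest and 4 lowest by test statistic in each, those with all 6 callipyge lambs on one side, members whose probe sets disagree, and per list up to 3 genes with the smallest p. The change within each genotype was added after the data were seen, and the members of the text outside these rules, such as those just outside the threshold, were chosen after their values were seen. Alternatives were other thresholds, pseudocounts, filters, normalizations, variances and probe sets, a replicate block, and lambs left out. The number of arrays limits the precision.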

Additional observations from a re-analysis of the deposited data

Results flagged for a closer look

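The levels of 3 members stood far from the other 5 lambs of their genotype, by Dixon's criterion for 6 samples, in 70 groups of 6 lambs that were tested. Chance alone flags about 1 group in 20, and the 6 lambs of a genotype differ in age. MRPL3 stood at 7.83 in callipyge 10 day replicate 2, against 7.03 to 7.33 in the other callipyge lambs. MRPS31 stood at 7.42 in callipyge 30 day replicate 2, against 7.98 to 8.27. MRPS9 stood at 6.10 in normal 30 day replicate 1, against 6.78 to 7.10 in the other normal lambs.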

How the results depend on the processing

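The 5 calls from 10 to 30 days became 8 at an adjusted p of 0.10. They were 3 with no filter on dim probe sets, quantile normalization, array weights or the dimmest probe set of each member, 2 with median centring, and 0 with no scaling, ordinary least squares or without replicate 2 of both 30 day groups. Leaving out single lambs gave 0 to 3. The 3 calls within normal lambs became 6 at 0.10, 1 with median centring or array weights, and 0 with no filter, no scaling, ordinary least squares or without replicate 2 of both 30 day groups, and 0 to 2 without single lambs. The share of all probe sets called is not given for the alternatives. A change over the whole array therefore cannot be told from one in the members. The causes were not tested. All other counts of calls stayed at 0 under every alternative run.

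Relative to all genes, the members' median kept its sign in every comparison and alternative except the change from 10 to 20 days, which ran from -0.102 to 0.00583 without single lambs. It moved by more than the spread between replicates (SD 0.0697) at 10 days, to -0.26 with a filter at the 75th percentile and from -0.249 to -0.0838 without single lambs. At 20 days it ran from -0.229 to -0.0369, for the change in callipyge lambs from -0.243 to -0.0430, and for the interaction from 0.18 to 0.33.

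Among the named members, in the comparisons they were named for, 5 with small differences changed sign, and none of them was called. Members that were not named are not counted here. With no scaling, the count of members below 0 from 10 to 30 days went from 57 to 34 of 63. With no scaling, MRPL42 gave -0.0010 for genotype over ages and -0.015 at 20 days, and MRPS26 gave -0.00136 at 20 days. For MRPL55 the change from 10 to 30 days ran from -0.081 to 0.25 without single lambs and was -0.095 without replicate 2 of both 30 day groups, and its interaction ran from -0.60 to 0.066 and was 0.038. MRPL9 ran from -0.052 to 0.29 from 10 to 30 days and from -0.073 to 0.27 from 20 to 30 days without single lambs, and gave -0.048 and -0.069 without replicate 2 of both 30 day groups. MRPS30 ran from -0.020 to 0.30 from 20 to 30 days.

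Same-numbered lambs of different groups did not deviate together over the tested probe sets (15 pairs, r from -0.06 to 0.11). With so few lambs this cannot settle whether the numbers pair them, for example by sire or litter, which the labels do not give. With a replicate block 5 members were called from 10 to 30 days and 1 within normal lambs, where MRPL22 and MRPS5 had adjusted p of 0.0519 and 0.0535 by limma. The share of all probe sets called with the block is not given, so a change over the whole array cannot be told from one in the members. With 2 lambs per group, the arrays are few, which limits the precision, and the 4 dim members were not tested.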
